A study of Rattus norvegicus with 10 samples.

Results

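Vcam1 and the other leukocyte adhesion molecules Icam1, Icam2, Sele, Selp, Itga4, Itgb2 and Itgam were followed in abdominal aortas of rats of the strains BN and LOU. Every probe set annotated with a single symbol among these 8 names was taken, which gave 8 probe sets for 6 genes, of 15866 probe sets and 10411 named genes in all. Icam2 and Selp had 2 probe sets each, and no probe set analysed here carried the symbol Itga4 or Itgb2. The study compared BN, the Brown Norway inbred strain, with the inbred strain LOU, 5 arrays each, to address the genetic basis of arterial traits of the BN rat named in its title. All rats were untreated, all arrays were labelled abdominal aorta at an age of 5 weeks, and sex was not given. The growth notes allowed ages above that, and the extraction notes also spoke of thoracic aorta. Whether the arrays stand for separate rats is not in the labels, so p-values measure only the spread between these arrays, which may be technical.

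Leukocytes leave the blood in steps. Selectins on the endothelium, the cell layer that lines the vessel, slow the rolling cells, and members of the immunoglobulin family on the same endothelium then hold them through integrins on the leukocyte. Sele is the selectin that endothelium makes after cytokine stimulation, and Selp is stored in granules of endothelial cells and platelets. Vcam1 binds the integrin of Itga4 and Itgb1 chains, Icam1 binds integrins that share the Itgb2 chain, and Icam2 is an Itgb2 ligand that resting endothelium already carries. Itgam is the alpha chain of an Itgb2 integrin of macrophages, monocytes and neutrophils. Tumour necrosis factor and interleukin 1 raise Vcam1, Icam1 and Sele through the transcription factor NF-kappaB, and Vcam1 can also be made by smooth muscle cells of the artery wall.

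Promoter sequences are shown for Vcam1 and Icam1, since these were the members whose BN and LOU signals did not overlap. They come from RefSeq on GRCr8, an assembly of a BN rat, and run from 250 bases before to 50 bases after the start of the gene, read 5′ to 3′ on the gene's strand. The Vcam1 stretch is chr2:206742734-206743033 on the minus strand and the Icam1 stretch is chr8:27829595-27829894 on the plus strand. Capitals mark matches, on either strand, to the letters GGNNTTNCC, a loose form of the NF-kappaB site, and to the TATA box letters TATAAA, with overlapping matches run together.
Vcam1: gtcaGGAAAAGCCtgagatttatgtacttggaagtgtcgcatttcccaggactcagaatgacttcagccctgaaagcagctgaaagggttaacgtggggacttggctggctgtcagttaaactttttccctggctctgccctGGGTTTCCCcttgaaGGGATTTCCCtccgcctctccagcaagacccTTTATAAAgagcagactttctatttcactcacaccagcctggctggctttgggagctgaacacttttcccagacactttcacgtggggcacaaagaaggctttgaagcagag
Icam1: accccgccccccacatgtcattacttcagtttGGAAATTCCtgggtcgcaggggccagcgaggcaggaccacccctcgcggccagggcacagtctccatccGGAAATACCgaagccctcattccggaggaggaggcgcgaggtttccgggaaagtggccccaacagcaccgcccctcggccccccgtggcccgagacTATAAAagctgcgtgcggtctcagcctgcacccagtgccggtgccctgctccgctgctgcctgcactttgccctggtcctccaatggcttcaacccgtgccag
In Vcam1 a pair of NF-kappaB-like stretches began 108 and 93 bases before the start, with a further match 246 bases before it and the TATA box 60 bases before it. Icam1 had NF-kappaB-like matches 218 and 149 bases before the start and a TATA box 53 bases before it. The windows of Sele, Itga4 and Itgam held neither set of letters. Each window was placed by the annotated start alone, so sequence outside it, or a promoter at another start, was not read. No absence of such sites from the Sele promoter follows. Of 33469 RefSeq promoter windows of this length, 16.03% held the NF-kappaB-like letters, 14.2% held TATAAA and 1.92% held both. The letters were chosen after the sequences had been read, and a match describes the sequence only. Icam2, Selp and Itgb2 were not in the table.

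The arrays gave 1 signal per probe set on a linear scale, and signals were compared after log2. Median signal was 97.4 to 103 on BN arrays and 104 to 105 on LOU arrays, and centring the arrays on their medians turned the sign of no member. Background on an array was set at the 95th percentile of its 45 control probe sets for bacterial RNA. It was 21.2 to 49.2 in BN and 26.2 to 33.3 in LOU. Between 69.7% and 81.9% of probe sets lay above it, and precision is set by the small number of arrays. The ratio of signals at the 3′ and 5′ ends of Gapdh, a measure of RNA integrity, overlapped between strains (log2 0.46 to 0.79 in BN and 0.51 to 1.01 in LOU). The same ratio for beta-actin was larger on every array and also overlapped (1.80 to 2.43 in BN and 1.95 to 2.20 in LOU). LOU array 1 stood apart in leukocyte markers and BN array 3 had the highest Schwann cell marker mean. Smooth muscle markers, which define the tissue, were above background on all 10 arrays for 9 of 9 genes, and so were endothelial markers for 14 of 14.

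Vcam1 was the 1 member probe set of 8 that passed the test, and it was lower in BN. Its signal was 159.6, 118, 112, 174 and 124 on the 5 BN arrays, against 519.9, 421, 734, 359 and 599 on the 5 LOU arrays. The strains did not overlap, and BN array 4, the highest of its strain, lay well below LOU array 4, the lowest of the other. BN averaged 138 ± 27.5 and LOU 527 ± 148 (SD, n = 5 each), a log2 difference of −1.91 (SE 0.22, 95% interval −2.40 to −1.43). limma's test over all 15866 probe sets gave an adjusted p of 0.00396, where 0.788% of all probe sets passed and 0.542% passed as lower in BN. By p-value Vcam1 ranked 17 of the 15866, and by difference it ranked 52 from the most negative. The gene was read by a single probe set (1368474_at), so no second one bears on it. In whole aorta, fewer cells of a type and less RNA per cell cannot be told apart. Without any 1 array the difference lay between −2.04 and −1.78, and the adjusted p between 0.00693 and 0.0171.

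**Figure D1:**
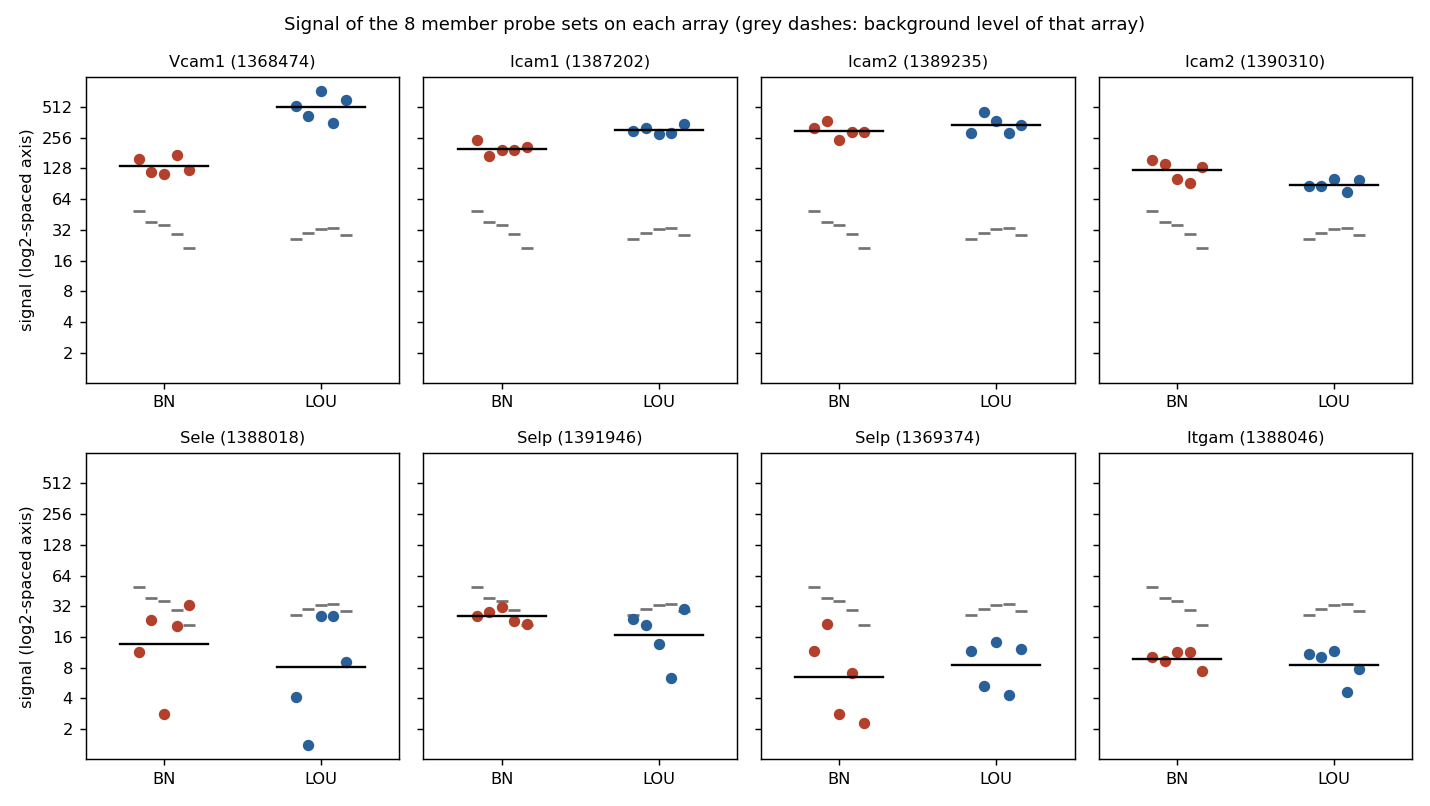
Signal of each member probe set (vertical axis, log2 spacing) on each array, BN left and LOU right, with the geometric mean as a black line and the background level of each array as a grey dash. Vcam1 and Icam1 are above background everywhere with no overlap between strains, Icam2 is above background with overlap, and the Sele, Selp and Itgam panels lie mostly below the grey dashes.

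Icam1 was lower in BN on every array too, by a smaller amount that did not pass the test over all probe sets. Its signal was 241, 170.0, 194, 194 and 208 on the BN arrays, against 299, 319, 281, 283 and 347 on the LOU arrays. The highest BN value, 241 on array 1, lay below the lowest LOU value, 281 on array 3. The mean was 201 ± 25.9 in BN and 306 ± 27.9 in LOU (SD, n = 5), a log2 difference of −0.61 (SE 0.13, 95% interval −0.89 to −0.33, limma adjusted p = 0.0652). An unadjusted p under 0.05 was reached by 3 of 8 member probe sets, those of Vcam1 and Icam1 and 1 of Icam2, against 13.3% of all probe sets. Of 8 member probe sets 2, those of Vcam1 and Icam1, had no overlap between strains, both lower in BN. No overlap was found in 4.18% of all probe sets, and in 2.77% with BN lower. The side of the threshold on which Icam1 fell depended on how dim probe sets were handled. The adjusted p was 0.0229 after leaving out the dimmest 40% of probe sets, 0.0245 with signals under 32 set to 32, 0.0380 on log2(signal + 16) and 0.0228 with a variance trend. It was above the threshold with median centring (0.0839), quantile normalization (0.0706), array weights (0.0513) and 1 probe set per gene (0.0552). The same held with the replicate number as a block (0.239) and without BN array 3 and LOU array 1 together (0.179). In each of the 10 fits that left out 1 array the adjusted p was also above the threshold, at 0.0580 to 0.159.

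Icam2, which resting endothelium carries, did not pass the test in either probe set, and the 2 probe sets differed in sign. In the brighter one (1389235_at) the signal was 316.5, 374.5, 242, 289 and 289 on the BN arrays, against 284, 453, 371, 285 and 338 on the LOU arrays. The strains overlapped over most of their range, with the highest value on LOU array 2. The mean was 302 ± 48.6 in BN and 346 ± 70.2 in LOU (log2 −0.19, 95% interval −0.57 to 0.19, limma adjusted p = 0.674). The dimmer probe set (1390310_at) gave 157, 143, 101.5, 92.9 and 132 on the BN arrays, against 86.9, 85.6, 101, 75.6 and 98.8 on the LOU arrays. Here 4 of 5 BN arrays lay above every LOU array, and BN array 4 lay inside the LOU range. Its log2 difference was 0.46 (95% interval 0.08 to 0.84, adjusted p = 0.279). Why the probe sets differ was not tested, and no direction is given for Icam2.

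The selectins and Itgam were near or below the background level, so the arrays gave no usable strain difference for them. Sele, the cytokine-induced endothelial selectin, had signals between 2.8 and 32.7 in BN and between 1.4 and 25.9 in LOU, and was above background on BN array 5 alone. Selp was above background on 1 BN and 1 LOU array in its brighter probe set (21.6 to 31.6 in BN, 6.4 to 30.4 in LOU) and on no array in the other (2.3 to 21.4 in BN, 4.3 to 14.4 in LOU). Itgam, the myeloid integrin chain, was above background on no array, at 7.4 to 11.4 in BN and 4.6 to 11.6 in LOU. The strains overlapped in all 4 of these probe sets, and the limma adjusted p ranged from 0.525 for the brighter Selp probe set to 0.822 for the dimmer one. The 95% interval for Sele, log2 −1.26 to 2.80, spanned both directions widely. The log2 differences were 0.77 for Sele, 0.61 and −0.41 for Selp and 0.20 for Itgam. All came from signals at or under background on most or all arrays.

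**Figure D2:**
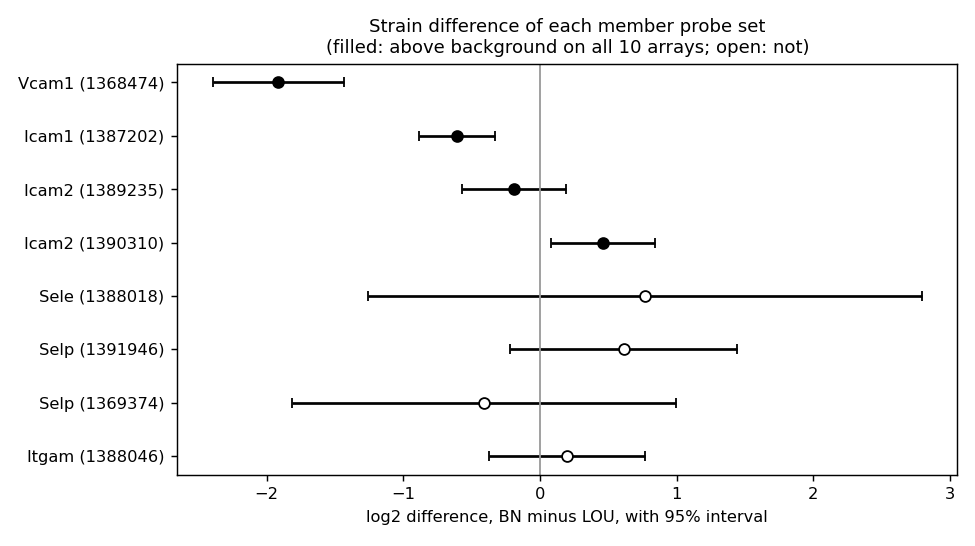
Log2 difference, BN minus LOU, of each member probe set (horizontal axis) with limma's 95% interval, filled where the probe set was above background on all 10 arrays and open where it was not. The Vcam1 interval, −2.40 to −1.43, lies left of all others that are filled, with the open points of the selectins and Itgam showing intervals across 0.

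The difference in Vcam1 was larger than that of Icam1, of the brighter Icam2 probe set and of the mean of the endothelial markers. The log2 signal of Vcam1 was set against that of another gene on the same array, and the strains were compared with an exact two-sided permutation test over the arrays, adjusted over 5 such comparisons. Levels of different probe sets are not comparable, so only the shift of such a value between strains is read. For 5 arrays against 5 the smallest possible p is 0.00794. All 5 comparisons share the Vcam1 signal, which was chosen with earlier results known and did not overlap between strains. Their p-values are therefore no separate support for the Vcam1 difference. Vcam1 minus Icam1 was −0.56 ± 0.25 in BN and 0.74 ± 0.42 in LOU (SD, n = 5), a difference of −1.31 (exact permutation p = 0.00794, adjusted 0.00992). The 5 BN values, −0.79 to −0.16, lay below the 5 LOU values, 0.34 to 1.39. Vcam1 minus the brighter Icam2 probe set was −1.14 ± 0.35 in BN and 0.58 ± 0.46 in LOU, a difference of −1.73 with the same p and adjusted p.

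Against the mean log2 signal of 14 endothelial markers on the same array, Vcam1 was −1.06 ± 0.31 in BN and 0.86 ± 0.56 in LOU. The difference was −1.92 (exact permutation p = 0.00794, adjusted 0.00992). The marker mean itself differed between strains by 0.00 (log2). With each gene centred over the arrays, it ran from −0.52 to 0.33 on BN arrays and −0.18 to 0.42 on LOU arrays. The comparison with it thus restates the Vcam1 difference, and the part of endothelial cell number was not tested. Pecam1, the junction protein of endothelium, chosen after its values were seen, was 86.1 to 259 in BN and 124 to 240 in LOU (log2 −0.22, limma adjusted p = 0.788). None of the 14 markers passed the test, where 0.788% of all probe sets passed. Of the markers 7 were higher and 7 lower, and the largest differences were those of Erg (−0.52) and Kdr (0.47). Against Sele and Selp the differences were −2.68 and −2.53 (exact permutation p = 0.0397 and 0.00794, adjusted 0.0397 and 0.00992). These ratios rest on selectin signals at or under background on most arrays and say nothing of the selectins. Without 1 array the comparison with Sele lost its call in 6 of 10 cases (−3.23 to −2.12). In the other 4 comparisons, those with Icam1, Icam2, Selp and the endothelial mean, the strains do not overlap. Leaving out an array therefore cannot change their p and says nothing of their stability.

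**Figure D3:**
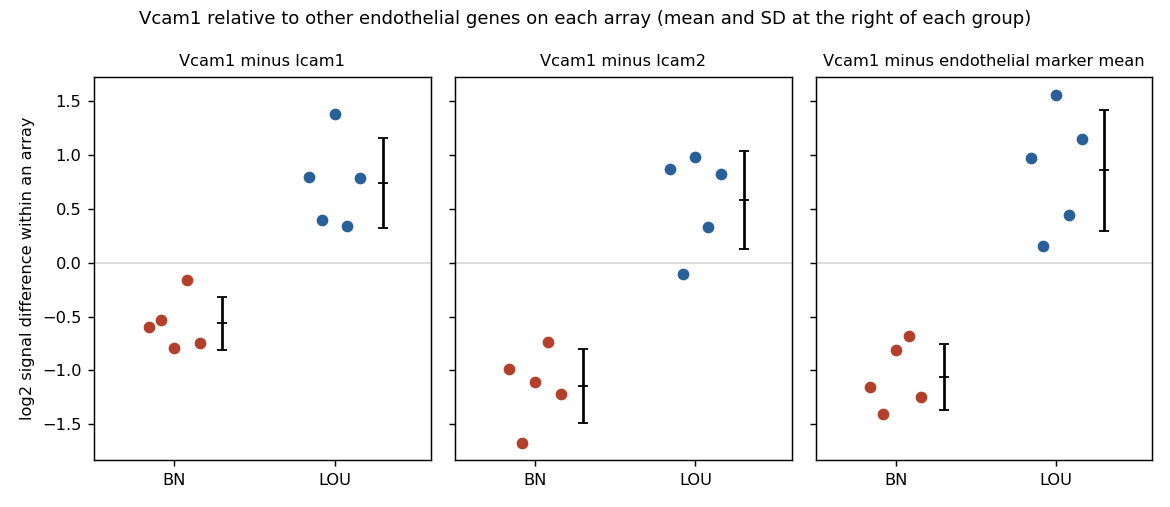
Log2 signal of Vcam1 minus that of Icam1, of the brighter Icam2 probe set, and of the mean of 14 endothelial markers on the same array (vertical axis), BN left and LOU right, with mean and SD beside the points. In each panel all 5 BN arrays lie below all 5 LOU arrays.

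Cell types other than endothelium differed among the arrays, and their marker means are given beside the Vcam1 values. Each mean is in log2 with every gene centred over the 10 arrays. Counts of marker genes past the test stand beside 0.788% of all probe sets. Macrophage and monocyte markers lay between −0.28 and −0.01 in BN and between −0.17 and 0.84 in LOU, with 10 of 11 genes lower in BN and none past the test. Their summed signal was 1251 to 1622 in BN and 1319 to 3437 in LOU. Lymphocyte markers ran from −0.25 to 0.05 in BN and from −0.28 to 1.27 in LOU, and LOU array 1 held the highest value of both lists. Vcam1 on that array was 519.9, the middle value of the LOU arrays, and without it the Vcam1 difference was −1.91. These values concern 1 array, and the part of leukocytes in the Vcam1 difference was not tested. Of 11 lymphocyte genes 7 were lower and 4 higher in BN, with none past the test and 3 above background on all arrays. The smallest adjusted p were those of the T cell genes Cd8a (log2 −1.54, limma adjusted p = 0.230), Cd8b (0.62, 0.332), Cd3e (−1.36, 0.478) and Cd2 (0.75, 0.539). Cd8a was above background on 1 BN and 2 LOU arrays, Cd3e on 0 and 2, and Cd2 on 1 and 1. Cd8b was above it on 5 BN and 3 LOU arrays. Of 5 neutrophil genes 3 were lower and 2 higher in BN, and none passed. Lcn2, an antimicrobial protein, was above background on all 10 arrays and differed by 0.52 (adjusted p = 0.469). The granule protease gene Mmp8 differed by 0.68 and Cxcr2, a chemokine receptor, by −0.07, with some arrays at background. S100a8 and S100a9 were above background on no array.

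Adventitial fibroblast markers, from cells of the outer coat of the vessel, were lower in BN for 10 of 10 genes with a median of −0.42, and none passed the test. An unadjusted p under 0.05 was reached by 5 of 10, against 13.3% of all probe sets. Pi16 was 279.9 to 488 in BN and 539.5 to 1209 in LOU (log2 −1.08, limma adjusted p = 0.0730), and Dpt, dermatopontin of the matrix, was 1306 to 2022 in BN and 2254 to 3624 in LOU (−0.78, 0.112). The strains did not overlap in these 2 genes of the 10, against 4.18% of all probe sets, and 2.77% with BN lower. Pdgfra, a growth factor receptor, differed by −0.80 and Fbln1, fibulin 1, by −0.49 (adjusted p = 0.178 and 0.267). Over all probe sets 53.5% were lower in BN, with a median of −0.03. The list mean ran from −0.49 to −0.05 in BN and from −0.13 to 0.68 in LOU. On LOU arrays 1 to 5 the fibroblast mean was 0.04, 0.68, 0.48, 0.15 and −0.13, beside Vcam1 signals of 519.9, 421, 734, 359 and 599. Array 3 was high in both, array 2 had the highest fibroblast mean, and array 5 alone had a fibroblast mean within the BN values. Smooth muscle markers ran from −0.12 to 0.43 in BN and from −0.39 to 0.17 in LOU, and 8 of 9 were higher in BN with none past the test. Schwann cell markers did not overlap, at −0.01 to 0.98 in BN and −0.64 to −0.24 in LOU, and Mbp, the myelin basic protein, passed (log2 1.73, limma adjusted p = 0.0460). Adipocyte markers ran from −0.99 to 0.89 in BN and −1.07 to 0.80 in LOU. The part of leukocytes, fibroblasts, smooth muscle, Schwann cells and fat in the Vcam1 and Icam1 differences was not tested.

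**Figure D4:**
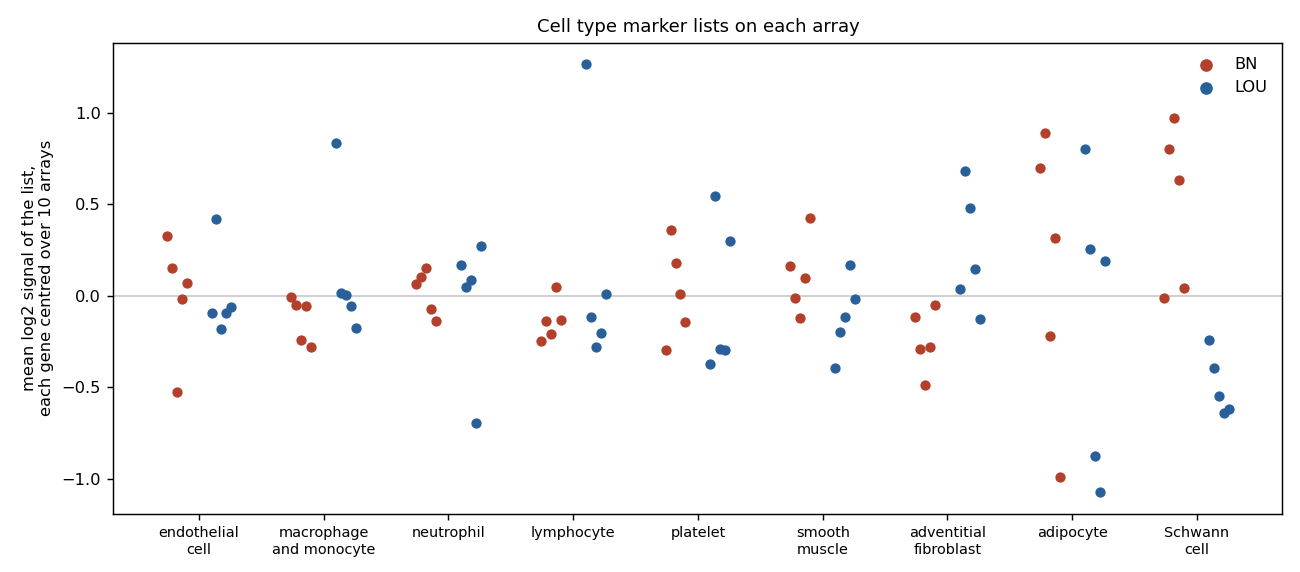
Mean log2 signal of 9 marker lists, each gene centred over the 10 arrays (vertical axis), with 1 point per array, BN left and LOU right within each list. Endothelial means overlap between strains, LOU array 1 is the high point of the macrophage and lymphocyte lists, and the Schwann cell means of BN lie above those of LOU.

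Other genes of the adhesion cascade showed no called difference between the strains. On the endothelial side, 19 of 28 listed genes were measured, of which 0 passed limma's test in either direction and 5 had an unadjusted p under 0.05. Of all probe sets 0.788% passed, 13.3% had an unadjusted p under 0.05 and 4.18% had no overlap between strains. At that share, lists this short would hold few passing genes or none. Their median difference was −0.10, against −0.03 over all probe sets, with 12 lower and 7 higher in BN. Rdx, radixin, which with ezrin (Ezr) ties membrane proteins to the actin skeleton, averaged 451 ± 71.0 in BN, against 619 ± 18.6 in LOU, without overlap (log2 −0.47, limma adjusted p = 0.151). Its other probe set gave −0.51. Ezr differed by −0.28 (adjusted p = 0.358), tied in adjusted p with Cx3cl1, the membrane-bound chemokine of endothelium (−1.18). Cx3cl1 was above background on 1 BN and 4 LOU arrays. The chemokine gene Cxcl12 differed by 0.88 in its brightest probe set (919 ± 317 in BN, 490.0 ± 138 in LOU, adjusted p = 0.177), and its other probe sets gave −0.17 and 0.04. Podxl, podocalyxin of the endothelial surface, differed by 0.46 (adjusted p = 0.237), with other probe sets at 0.04 and 0.14.

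On the leukocyte side, 19 of 27 listed genes were measured and 0 passed limma's test, with 3 at an unadjusted p under 0.05. The shares of all probe sets were 0.788% and 13.3%, and 4.18% had no overlap between strains. The median difference was −0.03, with 10 lower and 9 higher in BN. Cd44, the hyaluronan receptor, was 167 ± 25.4 in BN and 114 ± 22.3 in LOU (log2 0.56, limma adjusted p = 0.178), and its other probe set gave 0.39. Fut4, a fucosyltransferase that helps make selectin ligands, was 51.2 ± 11.4 in BN and 88.8 ± 35.1 in LOU with no overlap (log2 −0.75, adjusted p = 0.227). A dimmer Fut4 probe set gave −0.17. Fermt2, kindlin-2 of integrin adhesions, differed by 0.39 and St3gal4, a sialyltransferase, by 0.87 (adjusted p = 0.336 and 0.380). St3gal4 was above background on 4 BN and 2 LOU arrays. Itgb1, the chain that pairs with Itga4 in the Vcam1 receptor and is made by many cell types, was chosen after its values were seen. Its signal was 3289 to 4366 in BN, against 3258 to 4731 in LOU (log2 0.05, adjusted p = 0.915).

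Of 37 listed cytokine, chemokine and NF-kappaB genes 32 were measured and 0 passed limma's test, with 6 at an unadjusted p under 0.05. The shares of all probe sets were 0.788% and 13.3%. The median was −0.21, with 23 lower and 9 higher in BN, against −0.03 and 53.5% lower over all probe sets. Since the list also holds chemokine genes such as Ccl5 and Cxcl2, its median does not measure signalling upstream of Vcam1. Klf4, a transcription factor of endothelium and smooth muscle, was 276 ± 72.9 in BN and 392 ± 42.2 in LOU (log2 −0.54, limma adjusted p = 0.239). Klf2, a flow-induced transcription factor of endothelium, averaged 556 ± 218 in BN, against 871 ± 155 in LOU (log2 −0.71, adjusted p = 0.281). Its 4 other probe sets gave −0.99 to 0.13. The chemokine genes Ccl5 (−1.27, adjusted p = 0.322) and Cxcl2 (−0.73, adjusted p = 0.329) had arrays at background in both strains. The NF-kappaB subunits Nfkb1 and Rela, chosen after their values were seen, differed by −0.33 and 0.02 (adjusted p = 0.358 and 0.978). The part of Klf2, Klf4 or Nfkb1 in the Vcam1 difference was not tested.

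**Figure D5:**
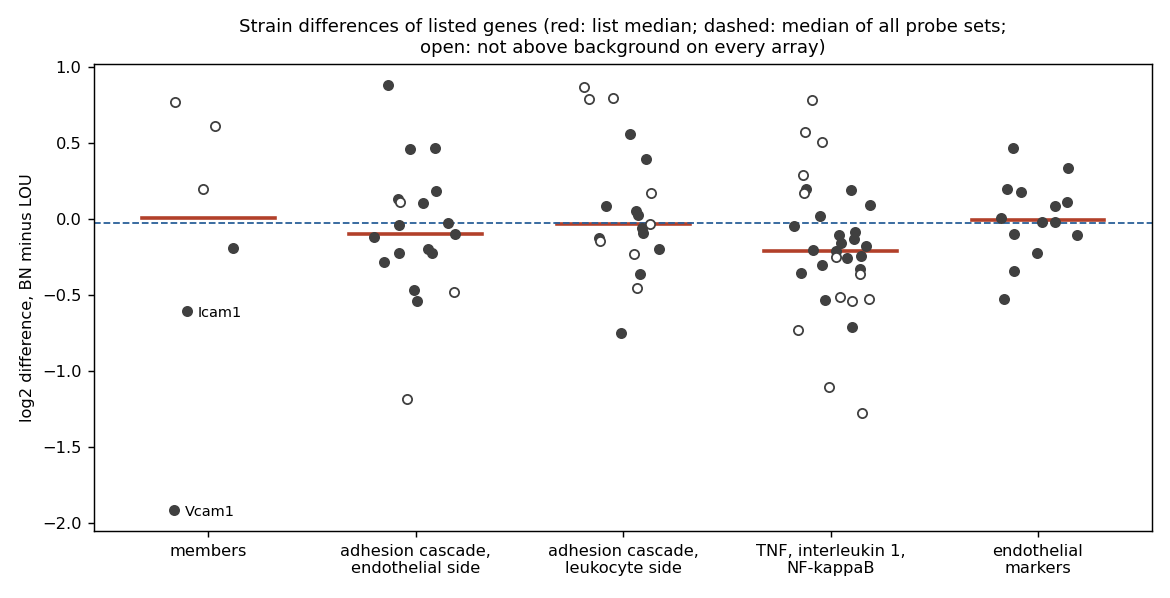
Log2 difference, BN minus LOU (vertical axis), of each measured gene in 5 lists, read from its brightest probe set, with the list median in red and the median of all probe sets dashed. Vcam1 at −1.91 lies below every gene of the other 4 lists, whose lowest are Ccl5 at −1.27 and Cx3cl1 at −1.18. Ccl5 and Cx3cl1 were at background on some arrays.

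The genes whose signal moved most like Vcam1 within the strains were not members. Likeness was Pearson's r of log2 signal over the 10 arrays after each strain was centred on its own mean, taken over 8463 probe sets above background on every array. The highest were Ppfia1, liprin alpha 1 of cell adhesions (r = 0.91), Ap1b1, a subunit of a vesicle coat adaptor (0.91), Fosl1, a subunit of the AP-1 transcription factor (0.88), Cfp, the complement factor properdin (0.86), and Mtg2, a mitochondrial ribosome GTPase (0.84). None of the 5 passed the strain test, and their differences ran from −0.41 for Mtg2 to 0.41 for Fosl1. For Icam1 the same r was 0.27, and for the Icam2 probe sets 0.14 and 0.31. These values describe 10 arrays that share their scaling, and the highest of 8463 are given.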

How the data were processed

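Total RNA of abdominal aorta was labelled as biotin cRNA and hybridised to Affymetrix arrays, per the labels' protocols. The deposited values are intensity on a linear scale, 1 per probe set. The submitters' processing notes name RMA, but the deposited intensity ranged up to 22219.9 and its 2% trimmed mean was 200.05 to 200.06 on every array. The values were therefore read as linear, scaled array by array to one mean, which only the values show. The 4 values of 0 were set to 0.1 before log2. After 57 controls were left out, limma 3.58.1 in R 4.3.3 was fitted to all 10 arrays. The fit used lmFit and eBayes for BN minus LOU, two-sided, with Benjamini-Hochberg over 15866 probe sets and a threshold of 0.05. It was also tested on simulated data with 200 changed probe sets. There it recovered 45.3% of changes of log2 1 and 77.3% of changes of log2 2, so smaller differences can be missed. Symbols came from the platform annotation, updated through RefSeq. Listed genes were read from their brightest probe set. In the most alike pair of arrays 0.358% of values were equal.

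The members and gene lists were chosen with earlier results of these data known. All member probe sets are named. Of the adhesion and NF-kappaB lists, genes past the test or otherwise up to 4 with the smallest adjusted p are named, with ties. Genes of the cell type marker lists were chosen after their values were seen, as were those said to be so. Alternatives were median centring, quantile normalization, a filter on dim probe sets, a floor of 32, a pseudocount of 16, a variance trend, array weights, 1 probe set per gene, the replicate number as a block, and each array left out. Leaving out BN array 3 and LOU array 1 together was added after seeing the data. Permutation tests used Python 3.11.15 (numpy 2.4.6) and plots matplotlib 3.10.9.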

Additional observations from a re-analysis of the deposited data

Results flagged for a closer look

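In 44 sets of 5 arrays, the 8 member probe sets, the 9 marker means and the 5 Vcam1 ratios in each strain, 4 held an array far from the others, where chance gives about 1 in 20. None of the 4 was a member or a Vcam1 ratio. LOU array 1 stood out in macrophage and monocyte markers (0.84, other LOU arrays −0.17 to 0.02) and in lymphocyte markers (1.27, others −0.28 to 0.01). LOU array 2 stood out in endothelial markers (0.42, others −0.18 to −0.06). Its signal in the brighter Icam2 probe set, 453, was the highest of the 10 arrays. In the dimmer Icam2 probe set its signal was 85.6, within the range of the other LOU arrays (75.6 to 101). LOU array 4 stood out low in neutrophil markers (−0.69, others 0.05 to 0.28), a list with 1 of 5 genes above background on all arrays. The Vcam1 difference was −1.91, −1.98 and −2.04 without LOU arrays 1, 2 and 4.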

How the results depend on the processing

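The Vcam1 difference kept its direction in all alternatives run (−2.04 to −1.78) and passed in all but the fit with the replicate number as a block (−1.91, adjusted p = 0.0841). In that fit 23 probe sets passed (10 higher, 13 lower in BN) and 0 members. Same-numbered arrays deviated from their strain means with correlations of −0.05 to 0.01 over all probe sets, which shows no broad shift shared by number. The labels do not say what the numbers stand for, so a pairing of the arrays is not excluded. In the block, the exact test of Vcam1 against Icam1, Icam2, Sele, Selp and the endothelial mean (−1.31, −1.73, −2.68, −2.53 and −1.92) cannot reach the threshold with 5 numbers. With 1 array left out these ran from −1.41 to −1.15, −1.90 to −1.59, −3.23 to −2.12, −2.68 to −2.30 and −2.09 to −1.74, and 1 member probe set passed each time (1 to 1). Then 63 to 127 probe sets passed over all, 17 to 36 higher and 45 to 91 lower, with 67 and 79 without BN arrays 2 and 4 and 65, 63, 75 and 78 without LOU arrays 2 to 5. In 5 of the settings other than leaving out 1 array the number of members past the test was not 1. It was 2, Vcam1 and Icam1, without the dimmest 40% (253 probe sets, 78 higher, 175 lower), with a pseudocount of 16 (204, 60 and 144), with a variance trend (242, 81 and 161) and with a floor of 32 (60 higher). Without BN array 3 and LOU array 1 together, 75 passed, 16 of them higher, and Vcam1 differed by −1.84 (adjusted p = 0.0302). The dimmer Selp probe set then changed sign (0.00463), as did Itgam without LOU array 4 (−0.025, range with 1 array left out −0.025 to 0.31), both at background. With a floor of 32 the Selp and Itgam probe sets gave no value, nor did the dim members without the dimmest 40%. Signal over background limits what can be said of Sele, Selp and Itgam.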

Other observations

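Values of 2 chemokine genes of the lists are given by array. Cx3cl1, the membrane-bound chemokine of endothelium, was 27.4, 32.5, 16.5, 22.1 and 28.2 on the BN arrays, against 46.1, 22.8, 125, 143 and 29.2 on the LOU arrays (log2 −1.18, limma adjusted p = 0.358). LOU arrays 3 and 4 held its highest signals, and it was above background on 1 BN and 4 LOU arrays. Ccl2, a monocyte chemokine chosen after its values were seen, was also highest on LOU arrays 3 and 4. It was 13.8 to 48.4 in BN and 9.0 to 89.2 in LOU (log2 0.11, limma adjusted p = 0.956), above background on 2 BN and 3 LOU arrays. Of the 4 platelet genes measured, also chosen after their values were seen, none passed. Pf4 was 135 to 172 in BN and 188 to 457 in LOU (log2 −0.71, limma adjusted p = 0.229). It had no overlap between strains, as had 4.18% of all probe sets. Gp5, above background on 3 BN and 2 LOU arrays, differed by 0.83, Ppbp by 0.05 and Itga2b by 0.02.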
